A study of Homo sapiens with 12 samples.

Results

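The genes described here are 9 enzymes of androgen and related steroid metabolism: the aldo-keto reductases AKR1C1, AKR1C2 and AKR1C3, the glucuronosyltransferases UGT1A1 and UGT1A3, the reductases SRD5A1 and SRD5A3, and the dehydrogenases HSD17B4 and HSD17B11. They were chosen by symbol, all 9 symbols were present, and they are 9 of the 18668 genes in the deposited table. RNA was measured by poly(A) sequencing in 22Rv1, an established line of castration-resistant prostate cancer cells labelled as wild type in every group. The cells received 1 of 4 treatments for 24 h: a targeted degrader, an autophagy-activating ligand, enzalutamide, a drug of the prostate cancer clinic, or vehicle. Each group had 3 biologically independent libraries, and the labels used here gave no doses. The medium held fetal bovine serum in every group, vehicle included.

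Androgens are made, activated and removed by a small set of enzymes. AKR1C3 reduces androstenedione to testosterone, SRD5A1 reduces testosterone to the more potent dihydrotestosterone, and AKR1C1 and AKR1C2 reduce dihydrotestosterone to weak or inactive diols. UGT enzymes attach glucuronic acid to steroids, bilirubin and drugs so that they can leave the cell. HSD17B4 and HSD17B11 oxidise steroids, the inactivating direction. SRD5A3 is known above all for its part in making dolichol, the lipid carrier of N-glycan assembly.

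Enzalutamide and the degrader gave distinct patterns over these genes. The 3 AKR1C genes rose with enzalutamide, by up to 1.39-fold. With the degrader AKR1C3 was slightly lower, and AKR1C1 and AKR1C2 missed the threshold by edgeR. For AKR1C2 and AKR1C3 with the degrader, passing or missing turned on the method or on single libraries. UGT1A1 and UGT1A3 fell with both compounds. SRD5A1 rose and SRD5A3 and HSD17B4 fell with the degrader. With the ligand none of the 9 genes passed the test.

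Both gene families share sequence, which limits what a count for 1 member can say. AKR1C1, AKR1C2 and AKR1C3 lie together on chromosome 10, at chr10:4963253-4983283 (plus strand), chr10:4987400-5018031 (minus strand) and chr10:5035354-5107686 (plus strand) in GENCODE 29 on GRCh38. Their coding sequences have 969 bases each. Those of AKR1C1 and AKR1C2 differ at 19 bases (98% identity), while AKR1C3 has 91.4% identity with AKR1C1 and 91% with AKR1C2. The stretch of 120 coding bases (43 to 162) where AKR1C1 and AKR1C2 differ most, at 10 bases, is shown as the coding stretch with the most differences between them. Capitals mark the 21 bases at which any of the 3 genes differs.
AKR1C1: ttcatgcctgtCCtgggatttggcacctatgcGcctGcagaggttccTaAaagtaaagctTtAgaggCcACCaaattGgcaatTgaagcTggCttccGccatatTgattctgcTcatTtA
AKR1C2: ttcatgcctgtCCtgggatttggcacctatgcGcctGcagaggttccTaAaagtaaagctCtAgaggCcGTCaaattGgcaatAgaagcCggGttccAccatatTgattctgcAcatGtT
AKR1C3: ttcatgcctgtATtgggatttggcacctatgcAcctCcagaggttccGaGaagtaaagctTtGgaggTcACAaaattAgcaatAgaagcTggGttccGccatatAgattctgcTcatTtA

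UGT1A1 (chr2:233760248-233773299, plus strand, GRCh38) and UGT1A3 (chr2:233729108-233773299, plus strand) are products of 1 locus on chromosome 2. Each starts at a first exon of its own and continues into the same exons 2 to 5. The coding parts of the first exons had 61.2% identity, and those of exons 2 to 5, 735 bases, were identical. The 60 bases on each side of the junction are shown because they mark where the genes become indistinguishable, with the shared exon 2 in capitals.
UGT1A1: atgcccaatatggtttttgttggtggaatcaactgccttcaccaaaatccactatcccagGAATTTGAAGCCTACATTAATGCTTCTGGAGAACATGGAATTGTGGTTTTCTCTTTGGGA
UGT1A3: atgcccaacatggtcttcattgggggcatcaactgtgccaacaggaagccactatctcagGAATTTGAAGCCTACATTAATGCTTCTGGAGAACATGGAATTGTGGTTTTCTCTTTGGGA

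Of all windows of 100 bases in the UGT1A1 transcript, 60.5% were also found in UGT1A3. For AKR1C2 the share found in AKR1C1 was 31.1%, and for AKR1C1 the share found in AKR1C2 was 17.2%. These shares are over whole transcripts, with 2787 of 3756 bases untranslated in AKR1C2 and 5736 of 6705 in AKR1C1. AKR1C3 was more distinct, with 4.22% of its windows found in AKR1C2 and 1.11% in AKR1C1. Read length and counting settings were not given in the sources used here. Whether the software divided, dropped or repeated reads from windows shared between genes is therefore not known. Values of AKR1C1 against AKR1C2, and of UGT1A3 against UGT1A1, are therefore uncertain one by one, and summed values are given beside them.

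The other genes lie apart, at chr5:6633343-6674386 for SRD5A1 (plus strand), chr4:55346109-55373096 for SRD5A3 (plus strand), chr5:119452443-119637199 for HSD17B4 (plus strand) and chr4:87336610-87391386 for HSD17B11 (minus strand), all on GRCh38.

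Depth per library was 58.3 to 77.2 M assigned reads in degrader cells, 55.5 to 71.8 M with the ligand, 59.4 to 69.3 M with enzalutamide and 60.2 to 74.8 M with vehicle. As a check of the cell label, all 14 luminal prostate markers were listed, among them KRT8 at 429.6 to 852.3 CPM (counts-per-million) and HOXB13 at 202.3 to 275.7 CPM. Summed over the list they had 2779 to 2860 CPM with the degrader, 3465 to 3553 with the ligand, 3038 to 3149 with enzalutamide and 3499 to 3699 with vehicle; the part of this difference in the results below was not tested. Stromal markers (6 of 7 listed) summed to 20.2 to 24.7 CPM and immune markers (2 of 6, CD68 and CD14) to 5.83 to 9.17 CPM over the 12 libraries, with the lowest sums in degrader libraries. None of the 4 endothelial markers is in the table.

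Per transcript length, HSD17B4 was the most abundant of the 9 genes in vehicle cells, at 76.4 ± 1.08 CPM per kilobase (mean ± SD, n = 3, here and below). AKR1C3 (36.2 ± 1.43) and HSD17B11 (33.3 ± 1.36) were next. SRD5A3 had 18.1 ± 0.636, UGT1A1 11.6 ± 0.765, AKR1C2 9.39 ± 0.494, SRD5A1 5.42 ± 0.325, UGT1A3 2.51 ± 0.594 and AKR1C1 1.5 ± 0.0926 CPM per kilobase. The authors' FPKM values gave the same order, with AKR1C3 at 49.8 ± 1.94, HSD17B11 at 31.8 ± 1.61 and AKR1C1 at 1.38 ± 0.0995 FPKM. For AKR1C3 the deposited counts and FPKM imply a length of 1317 bases, against 1807 in the transcript used here, so its distance from HSD17B11 depends on the length taken. There UGT1A1 (10.6 ± 0.817) and AKR1C2 (9.82 ± 0.469) differed by less than their summed SDs. The annotated transcripts of AKR1C1 (6705 bases) and SRD5A1 (7132 bases) are mostly untranslated sequence, so levels per length of these genes rest on that annotation.

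**Figure D1:**
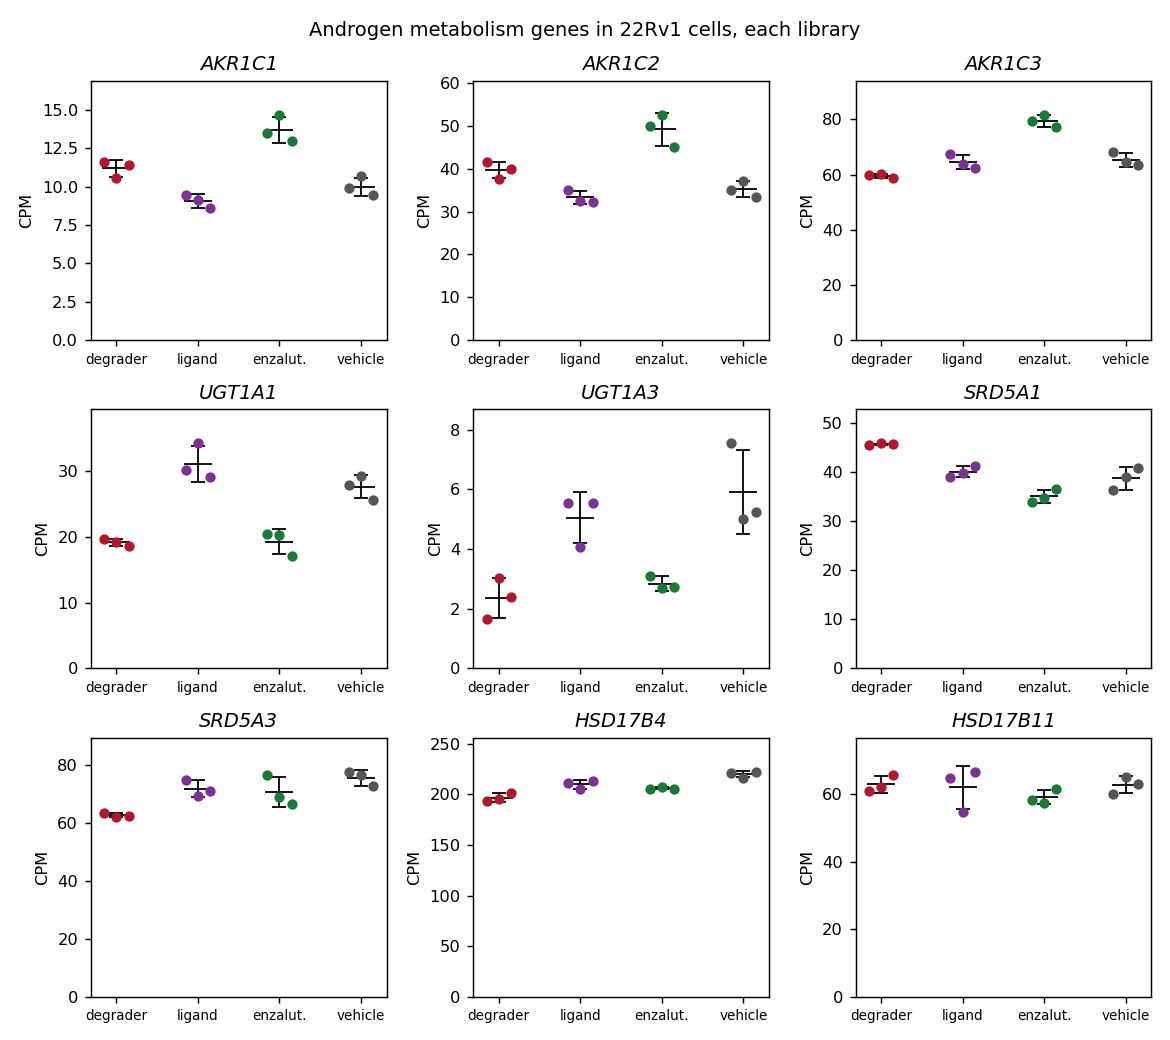
CPM (y axis from 0) of the 9 genes in each library, by treatment (x axis: degrader, ligand, enzalutamide, vehicle); points are libraries, and bars are the mean and SD of 3 libraries. The enzalutamide libraries stand highest for AKR1C1, AKR1C2 and AKR1C3, and degrader and enzalutamide libraries stand lowest for UGT1A1 and UGT1A3.

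The comparison of degrader with vehicle asked how the compound altered these transcripts. UGT1A1 and UGT1A3 fell most, SRD5A1 rose, and SRD5A3, HSD17B4 and AKR1C3 fell slightly. By edgeR, 6 of the 9 genes passed an adjusted p of 0.05, 1 higher and 5 lower, where 32.7% of all 17702 genes tested passed (16.4% higher and 16.4% lower). The median log2 fold change of the 9 was -0.14 against 0.01 over all genes, and the median absolute change was 0.17 against 0.18, close to each other. The groups did not overlap for 7 of the 9 genes, against 45.2% of all genes. All 9 genes passed the filter on low counts. In these bulk libraries, a lower level in every cell and a smaller share of cells with the transcript cannot be told apart.

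UGT1A1, which conjugates bilirubin and estradiol, had 19.7, 19.3 and 18.6 CPM with the degrader, against 28, 29.3 and 25.7 CPM with vehicle. The groups did not overlap, and the log2 fold change was -0.53 (SE 0.08, 95% confidence interval -0.69 to -0.36, edgeR adjusted p = 7.98e-05). UGT1A3, which conjugates bile acids and vitamin D metabolites, had 1.66, 3.02 and 2.38 CPM with the degrader, against 7.54, 5 and 5.23 CPM with vehicle. These rest on 128 to 228 reads in degrader libraries and 313 to 557 in vehicle libraries, and vehicle replicate 1 was the highest of all 12. The log2 fold change was -1.34 (SE 0.20, interval -1.76 to -0.91, 0.000125) and lay between -1.57 and -1.12 with any 1 library left out. Summed over the 9 UGT1A rows, levels were 22.1 ± 0.535 CPM with the degrader and 34.5 ± 1.98 CPM with vehicle, a ratio of 0.642. If each shared read was counted once, this ratio does not depend on how reads were divided within the family.

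The AKR1C genes moved little and not as 1 group. AKR1C2, with 41.6, 37.7 and 39.9 CPM with the degrader and 35.1, 37.2 and 33.5 CPM with vehicle, lay higher without overlap but narrowly missed the threshold (0.17, SE 0.07, interval 0.04 to 0.31, adjusted p = 0.0515). DESeq2 gave 0.0492, and the authors' deposited table gave an adjusted p of 0.0479. By edgeR it was 0.0435 without degrader replicate 2 and 0.0403 without vehicle replicate 2, so the call turns on small choices. AKR1C1 had 11.6, 10.6 and 11.4 CPM with the degrader, against 9.94, 10.7 and 9.47 CPM with vehicle, which overlap (0.16, interval 0.00 to 0.32, 0.114). AKR1C3, the testosterone-forming member, had 59.7, 60.2 and 58.6 CPM with the degrader and 68.3, 64.4 and 63.4 CPM with vehicle. It fell by 0.14 (SE 0.05, 0.0411), a call lost without vehicle replicates 1 or 2 (0.175 and 0.0712) or degrader replicates 1, 2 or 3 (0.0802, 0.0769 and 0.104).

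Among the reductases, SRD5A1 had 45.5, 45.8 and 45.6 CPM with the degrader, against 36.2, 39 and 40.8 CPM with vehicle. It rose by 0.24 (SE 0.05, interval 0.13 to 0.35, adjusted p = 0.00264), and the call held with each library left out. SRD5A3, of the dolichol pathway, had 63.5, 62.3 and 62.5 CPM with the degrader, against 77.8, 76.6 and 72.7 CPM with vehicle. Every degrader library was below every vehicle library, and the gene fell by 0.27 (SE 0.06, 0.00124). The 2 reductase genes thus differed in direction.

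HSD17B4, a peroxisomal enzyme of fatty acid breakdown that also oxidises estradiol, had 193.0, 195.8 and 201.4 CPM with the degrader, against 221.1, 216.5 and 222.4 CPM with vehicle. This fall of 0.16 (SE 0.04, 0.00391) was small and was called with each library left out. HSD17B11, a dehydrogenase found on lipid droplets, had 61, 62.3 and 65.8 CPM with the degrader, against 60.1, 65.2 and 63 CPM with vehicle. The groups overlapped, and the interval of the log2 fold change, -0.13 to 0.14, leaves room only for small differences (adjusted p = 0.964).

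**Figure D2:**
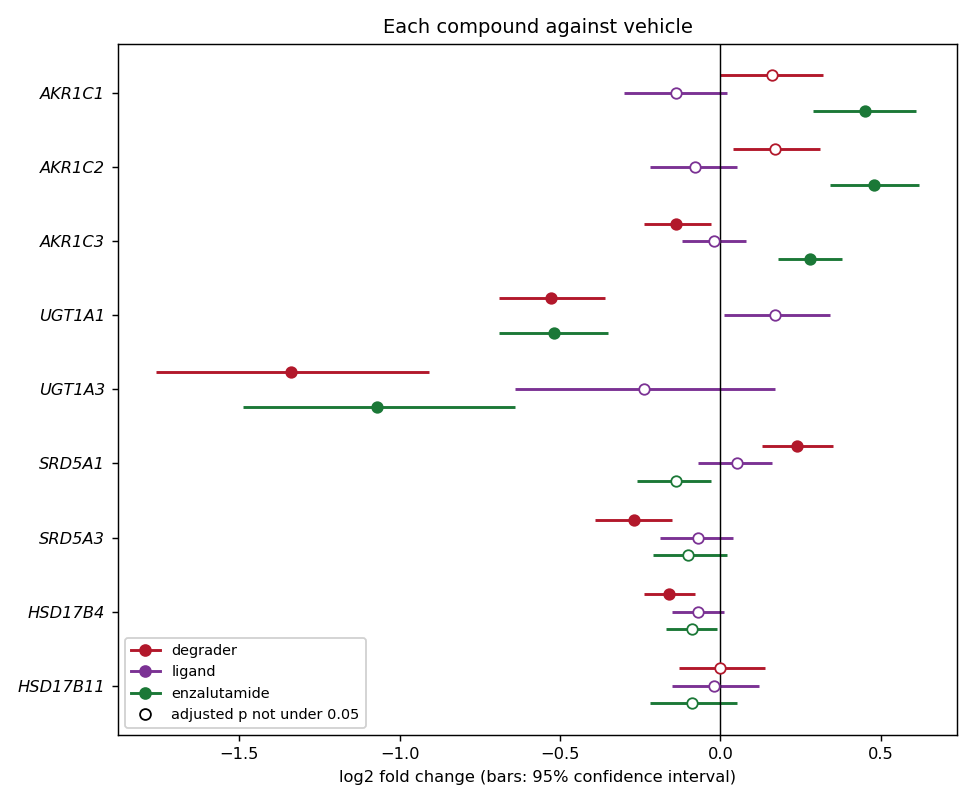
Log2 fold change (x axis) of each gene (y axis) with the degrader, the ligand and enzalutamide against vehicle; bars are 95% confidence intervals, and open points did not pass an edgeR adjusted p of 0.05. UGT1A1 lies at -0.53 with the degrader and -0.52 with enzalutamide, while AKR1C3 lies at -0.14 with the degrader and 0.28 with enzalutamide; all 3 comparisons share the vehicle libraries.

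The next comparison set the clinical drug, enzalutamide, against vehicle. AKR1C1, AKR1C2 and AKR1C3 rose together, and UGT1A1 and UGT1A3 fell. By edgeR, 5 of the 9 genes passed (3 higher, 2 lower), where 1.44% of all genes passed (0.35% higher and 1.09% lower). The median absolute log2 fold change was 0.28 over the 9 genes and 0.08 over all genes, and 6 of the 9 genes had groups apart, against 17.1% of all genes. The genes were selected with earlier results known, so this excess describes them and is not a test.

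AKR1C2 had 49.9, 52.6 and 45 CPM with enzalutamide, against 35.1, 37.2 and 33.5 CPM with vehicle. The lowest enzalutamide library was above the highest vehicle library, and the log2 fold change was 0.48 (SE 0.06, interval 0.34 to 0.62, adjusted p = 0.000364), which is 1.39-fold. AKR1C1 had 13.5, 14.7 and 13 CPM with enzalutamide, against 9.94, 10.7 and 9.47 CPM with vehicle (0.45, SE 0.08, 0.00256). AKR1C3 had 79.5, 81.7 and 77.1 CPM with enzalutamide, against 68.3, 64.4 and 63.4 CPM with vehicle (0.28, SE 0.05, 0.00336). For each of the 3 genes the groups were apart, and the call held with any 1 library left out, the largest adjusted p being 0.0304 for AKR1C3. Since AKR1C3 shares few windows with the other 2, its rise is the one least open to divided reads.

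UGT1A1 had 20.5, 20.3 and 17.1 CPM with enzalutamide, against 28, 29.3 and 25.7 CPM with vehicle. It fell by 0.52 (SE 0.08, interval -0.69 to -0.35, adjusted p = 0.00115), with no overlap. UGT1A3 had 3.11, 2.7 and 2.71 CPM with enzalutamide, against 7.54, 5 and 5.23 CPM with vehicle, and fell by 1.07 (SE 0.20, 0.00939). That call was lost without enzalutamide replicate 2 (0.0634) or 3 (0.0598). The summed UGT1A rows had 22.7 ± 1.95 CPM with enzalutamide and 34.5 ± 1.98 CPM with vehicle, a ratio of 0.656.

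The reductases and dehydrogenases did not pass with enzalutamide. SRD5A1 had 33.9, 34.7 and 36.5 CPM against 36.2, 39 and 40.8 CPM with vehicle, which overlap (-0.14, interval -0.26 to -0.03, adjusted p = 0.353). SRD5A3 averaged 70.8 ± 5.3 CPM with enzalutamide and 75.7 ± 2.68 CPM with vehicle (-0.10, interval -0.21 to 0.02, 0.606). HSD17B4 averaged 206.3 ± 1.25 CPM with enzalutamide and 220.0 ± 3.15 CPM with vehicle (-0.09, interval -0.17 to -0.01, 0.413), without overlap. HSD17B11 averaged 59.1 ± 2.09 CPM with enzalutamide and 62.8 ± 2.55 CPM with vehicle (-0.09, interval -0.22 to 0.05, 0.714). All 4 values were below 0 and none was larger than 0.14 in size.

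With the ligand against vehicle, 0 of the 9 genes passed by edgeR, where 0.237% of all genes did (0.203% higher and 0.0339% lower), and 0 passed by DESeq2. At an unadjusted p under 0.05 there was 1, UGT1A1. It had 30.2, 34.3 and 29.1 CPM with the ligand, against 28, 29.3 and 25.7 CPM with vehicle, which overlap (0.17, interval 0.01 to 0.34, adjusted p = 0.655). The other 8 genes had log2 fold changes from -0.24 for UGT1A3 (5.54, 4.06 and 5.55 CPM with the ligand, interval -0.64 to 0.17) to 0.05 for SRD5A1. AKR1C1 (-0.14, interval -0.30 to 0.02) had 9.45, 9.15 and 8.61 CPM with the ligand, against 9.94, 10.7 and 9.47 CPM with vehicle, below every vehicle library. HSD17B4 (-0.07, interval -0.15 to 0.01) was the other of 2 genes without overlap, against 11.3% of all genes. For all 9 genes except UGT1A1 and UGT1A3 the interval stayed within 0.30 of 0 on the log2 scale.

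The compounds were also compared with each other after the same 24 h, over 3 pairs, with p adjusted over all genes in each pair. Doses were not given, so a difference between compounds may also be a difference in dose. Degrader and enzalutamide differed in the AKR1C genes and SRD5A1 and not detectably in the UGT1A genes. In this pair 5 of 9 genes passed (1 higher, 4 lower), where 32.3% of all genes did (16.3% higher and 16.1% lower), and 6 had no overlap, against 46.4% of all genes. Against enzalutamide the degrader libraries had lower AKR1C3 (-0.42, SE 0.05, adjusted p = 6.45e-06), AKR1C2 (-0.31, SE 0.06, 0.00163) and AKR1C1 (-0.29, SE 0.07, 0.00661), with no overlap for any of them. SRD5A1 was higher with the degrader, at 45.6 ± 0.118 CPM against 35 ± 1.34 CPM with enzalutamide (0.38, SE 0.05, 5.25e-05). SRD5A3 was lower (-0.17, 0.0245), a call lost without degrader replicates 2 or 3 (0.0743 and 0.0623) or enzalutamide replicate 1 (0.153).

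UGT1A1 averaged 19.2 ± 0.565 CPM with the degrader and 19.3 ± 1.88 CPM with enzalutamide, a log2 difference of -0.01 with an interval of -0.18 to 0.16 (adjusted p = 0.962). For UGT1A3 the difference was -0.27 and the interval wide, -0.72 to 0.18 (0.358). HSD17B4 (-0.07, interval -0.15 to 0.01) and HSD17B11 (0.09, interval -0.05 to 0.23) did not pass either. 

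Degrader and ligand differed in 6 of 9 genes (3 higher, 3 lower), where 28.5% of all genes passed (14.3% higher and 14.2% lower), and 8 had no overlap, against 38.7%. UGT1A1 (-0.70, SE 0.08, 6.5e-06), UGT1A3 (-1.10, SE 0.20, 0.000913) and SRD5A3 (-0.20, 0.0136) were lower with the degrader. AKR1C1 (0.30, SE 0.08, 0.00651), AKR1C2 (0.26, SE 0.07, 0.00734) and SRD5A1 (0.19, 0.0144) were higher. SRD5A3 lost its call without ligand replicate 1 (0.0697), and SRD5A1 without degrader replicate 2 (0.0549) or ligand replicate 1 (0.0595). AKR1C3 (-0.12, 0.0819) and HSD17B4 (-0.09, 0.0834) missed the threshold by edgeR and passed it by DESeq2 (0.0373 and 0.0228).

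Ligand and enzalutamide differed in 5 of 9 genes, where 2.04% of all genes passed (1.37% higher and 0.667% lower), and 6 had no overlap, against 12.6%. As in every comparison here, the genes were selected with earlier results known, so the excess describes them and is not a test. The enzalutamide libraries are also those compared with vehicle above, so the 2 comparisons are not independent. AKR1C1 (-0.60, SE 0.08, 0.000163), AKR1C2 (-0.56, SE 0.07, 5.61e-05) and AKR1C3 (-0.30, SE 0.05, 0.00163) were lower with the ligand. UGT1A1 was higher with the ligand, at 31.2 ± 2.73 CPM against 19.3 ± 1.88 CPM with enzalutamide (0.70, SE 0.08, 4.95e-05). UGT1A3 was higher too (0.83, SE 0.20, 0.0467), but that call was kept only without ligand replicate 2 (0.0296) and was lost without ligand replicates 1 or 3 (0.195 and 0.139) or enzalutamide replicates 1, 2 or 3 (0.0967, 0.188 and 0.183).

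**Figure D3:**
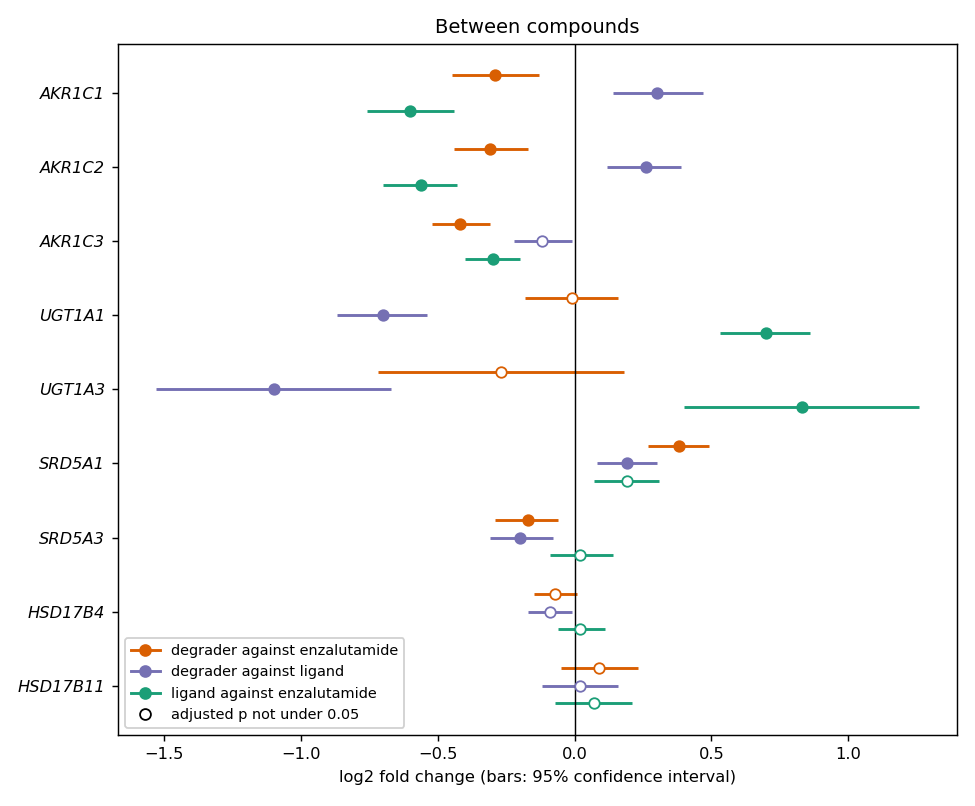
Log2 fold change (x axis) of each gene (y axis) between compounds, the first named over the second; bars are 95% confidence intervals, and open points did not pass an edgeR adjusted p of 0.05. Degrader against enzalutamide gives -0.42 for AKR1C3 and 0.38 for SRD5A1, with UGT1A1 at -0.01; each pair of comparisons shares 1 group of libraries.

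Within the AKR1C family, the ratio of AKR1C1 to AKR1C2 reads hardly moved. It was 0.282 ± 0.00416 with the degrader, 0.273 ± 0.00737 with the ligand, 0.28 ± 0.01 with enzalutamide and 0.284 ± 0.00231 with vehicle. The coding sequences have 98% identity, but over whole transcripts 17.2% of AKR1C1 windows of 100 bases were found in AKR1C2, and 31.1% the other way. Whether a shared response or a fixed division of shared reads underlies the steady ratio was not tested. The ratio of AKR1C2 to AKR1C3 was more variable, at 0.668 ± 0.0369 with the degrader, 0.515 ± 0.00557 with the ligand, 0.619 ± 0.0311 with enzalutamide and 0.54 ± 0.0336 with vehicle. The lowest degrader library (0.627) and the lowest enzalutamide library (0.584) were both above the highest vehicle library (0.578). Summed over the 4 AKR1C rows, levels were 110.8 ± 2.22 CPM with the degrader, 107.5 ± 4.51 with the ligand, 142.8 ± 6.98 with enzalutamide and 111.2 ± 3.76 with vehicle. The sum with enzalutamide was thus 1.28 times that with vehicle, and with the degrader 0.997 times. AKR1C4, the liver member of the family, added 20 to 57 reads per library.

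**Figure D4:**
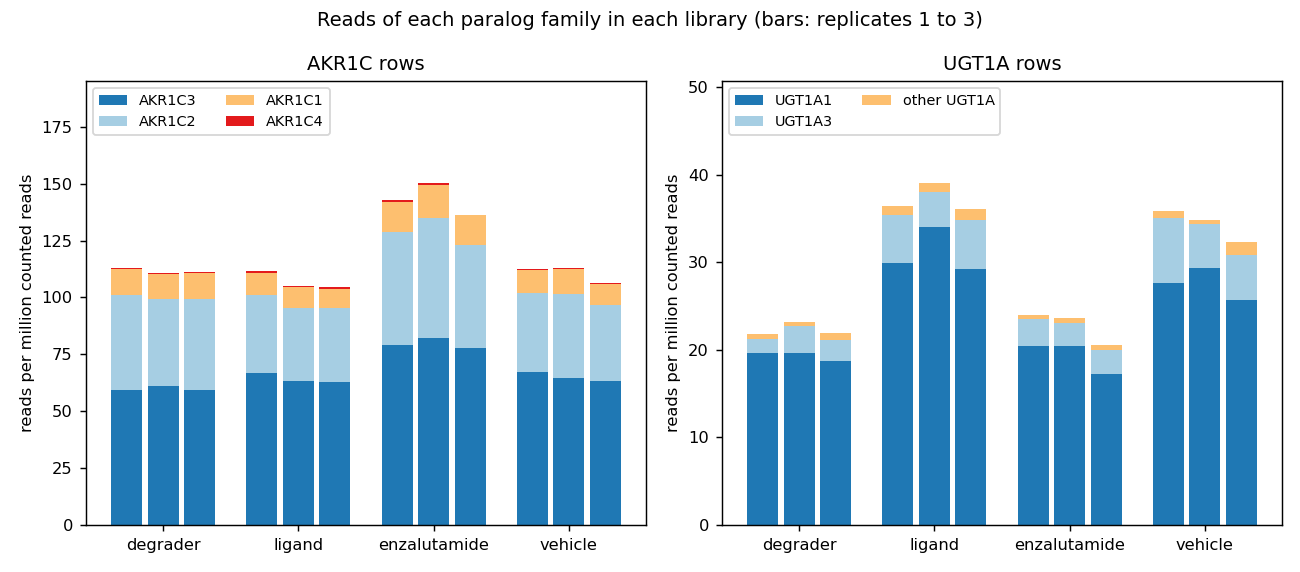
CPM without TMM scaling (y axis from 0) of the AKR1C rows (left) and the UGT1A rows (right) in each library. Bars run through replicates 1 to 3 of degrader, ligand, enzalutamide and vehicle (x axis), stacked by gene. The UGT1A rows other than UGT1A1 and UGT1A3 are pooled in a single part of each bar. Enzalutamide libraries have the tallest AKR1C bars, and degrader and enzalutamide libraries have the shortest UGT1A bars.

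UGT1A1 and UGT1A3 held 95.6 to 98.6% of the reads of the 9 UGT1A rows in every library. The ratio of UGT1A3 to UGT1A1 reads was 0.123 ± 0.036 with the degrader, 0.164 ± 0.04 with the ligand, 0.148 ± 0.0131 with enzalutamide and 0.215 ± 0.0505 with vehicle. The ligand libraries (0.118 to 0.191) overlapped with every other group, and the lowest vehicle library (0.171) was above all degrader and enzalutamide libraries (up to 0.156 and 0.158). Only first-exon reads separate these genes.

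Other genes of steroid handling gave the setting, in lists chosen with earlier results of these data known and leaving out the 9 genes. Their counts stand beside 32.7% of all genes called with the degrader, 0.237% with the ligand and 1.44% with enzalutamide, each against vehicle. Of the glucuronidation list, 13 genes were tested. With the degrader 1 rose and 3 fell (median -0.10), and with enzalutamide 2 fell (median -0.10). UGT2B11 fell by 1.26 with the degrader (0.749 ± 0.139 against 1.79 ± 0.208 CPM with vehicle, adjusted p = 8.77e-05) and by 1.03 with enzalutamide (0.873 ± 0.0869 CPM, 0.00578). UGDH, which makes the sugar donor UDP-glucuronic acid, rose by 0.17 with the degrader (0.0212) and fell by 0.25 with enzalutamide (183.0 ± 8.18 against 216.9 ± 9.47 CPM with vehicle, 0.0294). UGT2B10 fell by 0.43 with the degrader (0.00491), and the remaining fall, UGT1A4, had counts of 2, 1 and 1 with the degrader and 6, 7 and 15 with vehicle. The lowest count of any gene in the table is 1, so a count of 1 may stand for no reads.

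The main androgen-conjugating enzymes of the prostate are UGT2B15 and UGT2B17, named here after their values were seen. UGT2B15 had 24.1 ± 1.6 CPM with the degrader, 24.7 ± 1.59 with the ligand, 29.5 ± 1.88 with enzalutamide and 25.4 ± 2.15 with vehicle. Against vehicle it passed with no compound by edgeR, the largest difference being enzalutamide's 0.21 (interval 0.06 to 0.37, adjusted p = 0.275), and degrader against enzalutamide passed at -0.29 (0.00695). UGT2B17 averaged 1.92 to 2.36 CPM over the 4 groups and passed in none of the 6 comparisons by edgeR.

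Of the dehydrogenase list, 14 genes were tested, and 3 rose and 3 fell with the degrader (median -0.01). HSD17B7, an enzyme of both estradiol and cholesterol synthesis, rose by 1.42 (27.7 ± 1.35 CPM with the degrader and 10.3 ± 0.495 CPM with vehicle, adjusted p = 1.6e-09), although a related pseudogene is in the table too and may share reads. RDH11, a retinal reductase of prostate cells, rose by 0.70 (261.8 ± 3.81 against 160.7 ± 3.22 CPM with vehicle, 3.16e-09), and HSD17B14 by 0.89. Among those that fell, HSD17B10, a mitochondrial dehydrogenase, was at -0.23 (89.6 ± 5.31 against 105.0 ± 3.26 CPM with vehicle, 0.0176). With the ligand HSD17B7 (0.45, 0.0246) and RDH11 (0.28, 0.00471) were the 2 that rose, and with enzalutamide 0 of 14 passed by edgeR or by DESeq2 (2 at an unadjusted p under 0.05). Of the steroid synthesis list, only 7 of 15 genes are in the table. There POR, the electron donor of microsomal P450 enzymes, rose by 0.25 with the degrader and CYB5A, its partner cytochrome, fell by 0.27, beside STARD3 (0.20) and FDX1 (-0.15).

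The reductase, sulfation and transport lists were counted in the same way, beside 32.7% of all genes called with the degrader. Of 7 other aldo-keto and steroid reductases tested, AKR1A1 rose by 0.25 with the degrader (0.013) and no other member passed in any comparison by edgeR, while DESeq2 called 1 lower in degrader against enzalutamide. Of 11 sulfation genes, PAPSS1, which makes the sulfate donor, fell by 0.48 with the degrader (125.8 ± 2.12 against 175.6 ± 0.623 CPM with vehicle, 8.07e-08) and SUMF1 rose by 0.21. Of 9 steroid transporters, SLCO2A1 fell by 0.95 and ABCC2 rose by 0.23 with the degrader. No gene of these 3 lists passed with the ligand or with enzalutamide against vehicle by edgeR. At an unadjusted p under 0.05 there were 1, 3 and 2 in reductases, sulfation and transport with the ligand, and 0, 1 and 3 with enzalutamide, and DESeq2 called 1, a sulfation gene lower with the ligand.

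AKR1C genes are known targets of NRF2 and UGT1A genes of the aryl hydrocarbon receptor, and both lists were counted. Of 18 NRF2 and redox genes, 8 rose and 4 fell with the degrader (median 0.11), where 16.4% of all genes rose and 16.4% fell, including SLC7A11 (1.59) and HMOX1 (1.09) higher and TXN (-0.39) lower. With enzalutamide 1 of the 18 passed, and it fell. This was GCLC, a subunit of the glutathione-forming ligase. It had 101.1 ± 0.8 CPM with enzalutamide and 151.0 ± 5.13 CPM with vehicle (-0.58, 9.81e-07). Of 11 xenobiotic regulators and targets, 4 rose and 0 fell with the degrader (median 0.18). They were CYP1A1 (65.1 ± 7.43 against 11.8 ± 1.6 CPM with vehicle, 2.47), CYP1A2 (2.22), TIPARP (0.36) and RXRA (0.22). With the ligand and with enzalutamide 0 of the 11 passed by edgeR, with 2 and 3 at an unadjusted p under 0.05, and DESeq2 called 1 higher with the ligand.

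The partners of the other members were counted in the same way for degrader against vehicle, where 32.7% of all genes were called. Of 21 genes of dolichol and early N-glycan synthesis, the setting of SRD5A3, 2 rose and 3 fell (median 0.04), with ALG8 at -0.47 and ALG2 at 0.35. Of 19 genes of peroxisomal beta oxidation, the setting of HSD17B4, 2 rose and 5 fell (median -0.11), among them ECI2 (-0.41), CROT (-0.42) and ABCD3 (-0.26). CROT (-0.33, 0.00427) and ECI2 (-0.22, 0.0321) also fell with enzalutamide. Of 22 lipid droplet genes, the setting of HSD17B11, 3 rose and 8 fell (median -0.06), with SOAT1, which esterifies cholesterol, at 0.46 and METTL7A at -0.20.

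Over the 12 libraries, the genes whose log2 CPM followed each member most closely were found by Pearson correlation. These values describe libraries that differ by treatment and carry no test. AKR1C1 and AKR1C2 were each other's closest (r = 0.99), followed for both by EVX1 and SPOCK2 (0.94 or 0.95). AKR1C3 was closest to HOXC12 (0.96), ASB9 (0.94) and GATA2 (0.93), and not to the other AKR1C genes, with which it had 0.67 and 0.70. UGT1A1 was closest to DBI, PRAG1 (both 0.95) and AMER3 (0.94), and UGT1A3 to NELL2 (0.93), TBPL1 and CEACAM6 (both 0.92).

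SRD5A1 was closest to PRUNE2 (0.98), THRB and SEC22C (both 0.97), SRD5A3 to SMIM28 (0.96), VDAC2 and TXN (both 0.95), and HSD17B4 to MCCC2, SMARCC1 and NUP54 (each 0.95). HSD17B11, which passed in no comparison, had the weakest neighbours, ABCB10 (0.90), WWP1 and TDP2 (both 0.89). Among the members, SRD5A1 and AKR1C3 had the strongest negative value (-0.92), with SRD5A1 highest in degrader libraries and AKR1C3 highest in enzalutamide libraries.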

How the data were processed

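Poly(A) RNA of 12 libraries was sequenced from a stranded kit, per the labels' protocols. Per the submitters' processing notes, HISAT2 and StringTie were used with GRCh37; versions and counting settings were not given. The authors deposited whole-number read counts, FPKM and TPM per gene and library. Every listed gene has a count of at least 1 in each library, and 63 genes have exactly 1 in all 12. Also deposited, per the file headers, were log2 normalized values, a signed fold change score, standard errors and p-values against vehicle; only the adjusted p was printed.

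Genes with low counts were left out with filterByExpr (minimum count 10, total 15; 966 of 18668), counts were scaled by TMM (0.987 to 1.016), and edgeR 4.0.16 (R 4.3.3) quasi-likelihood tests used every library and 1 factor, the group (8 residual degrees of freedom). A gene was called at a Benjamini-Hochberg adjusted p under 0.05 over the 17702 genes tested. Levels are TMM-scaled CPM, and SE is the log2 fold change over the root of the F statistic. CPM per kilobase used the longest GENCODE 29 transcript matched by RefSeq accession. Replicates differed beyond sampling noise (chi-square per degree of freedom 5.56 to 22.8). The p-values set differences between groups against the spread between libraries. The fit was tested on simulated data. Deviations of same-numbered libraries had weak, mostly positive correlations (-0.03 to 0.21), which were above 0.1 throughout in 0 of 6 pairs of groups. Under that rule numbers were not used as pairs. Alternatives were DESeq2 1.42.0, RLE factors, no filter, the compared groups only, each library left out, a replicate block, FPKM levels and family sums. Members, lists and named genes (all 9; up to 4 called genes per list with the smallest p; the 3 most correlated genes with at least 5 CPM) were chosen with earlier results of these data known. A gene of the marker lists is withheld and not reported here.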

Additional observations from a re-analysis of the deposited data

How the results depend on the processing

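The number of the 9 genes called stayed within 1.5 times under all alternatives run. The number of all genes called with the ligand against vehicle, 42, was 191 with a replicate block, 25 in a fit of the compared groups only, 121 by DESeq2 and 21 to 77 with a library left out. With enzalutamide against vehicle, 255 became 553 with the replicate block and 403 by DESeq2. For ligand against enzalutamide, 361 became 613 with the replicate block and was 229 to 337 with a library left out. Since replicate numbers are not known to pair libraries, the block is given only here. Under it AKR1C2 passed with the degrader against vehicle (adjusted p = 0.016), AKR1C3 (0.031) and HSD17B4 (0.0362) with the degrader against the ligand and SRD5A1 (0.0212) with the ligand against enzalutamide, while UGT1A3 did not pass in that pair (0.0706). AKR1C2 with the degrader also passed in the compared groups only (0.038), and SRD5A1 in ligand against enzalutamide by DESeq2 (0.0354). Signs turned only where values were near 0 and not called. HSD17B11 with the degrader against vehicle was at 0.00 with RLE factors, with no filter and by DESeq2, each just below 0. With a library left out it ran from -0.03 to 0.04, and HSD17B11 with the ligand against vehicle from -0.07 to 0.07 and with the degrader against the ligand from -0.06 to 0.07. UGT1A1 in degrader against enzalutamide ran from -0.08 to 0.04, AKR1C3 in ligand against vehicle from -0.05 to 0.01 and SRD5A3 in ligand against enzalutamide from -0.01 to 0.09. The lowest counts among the 9 genes were those of UGT1A3, 128 to 557 reads a library; how far depth limits its precision was not separated from the spread between libraries.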

Other observations

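The UGT1A rows other than UGT1A1 and UGT1A3 held few reads and varied between replicates of 1 group. UGT1A10 had a count of 1 in each of the 3 degrader libraries and 3, 8 and 41 in the vehicle libraries, where a single library thus held most of them. The lowest count of any gene in the table is 1, which may stand for no reads. UGT1A6 had 36, 25 and 42 reads with the degrader and 46, 12 and 26 with vehicle. UGT1A8 and UGT1A9 were listed at 1 in all 12 libraries. The part of shared exons in these values was not tested.

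Among the liver markers counted beside these enzymes, 1 stood out. ALB, which encodes serum albumin, had 159.0 to 186.5 CPM with the degrader, 210.6 to 231.6 with the ligand, 263.8 to 272.1 with enzalutamide and 217.9 to 229.4 with vehicle. Enzalutamide libraries were the highest and degrader libraries the lowest, with no overlap of either with vehicle. TTR (up to 1.12 CPM) and CYP2E1 (up to 0.663 CPM) were near 0. ALB was singled out after its values were seen, and its differences between groups were not tested.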
